A study of Drosophila melanogaster with 6 samples.

Results

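The genes examined here are the insulin-like peptides of the fly and the core of the insulin signalling pathway, read in adult heads at 2 ages. They were chosen by gene symbol from a list of 10, and 7 of the 10 had a probe set named for them, each exactly 1, out of 18769 probe sets and 11982 named genes on the array. These were the peptide genes Ilp2 and Ilp5, the insulin-binding protein gene ImpL2, the receptor gene InR, the adaptor gene chico, the kinase gene Akt and the transcription factor gene foxo. Ilp3, Ilp6 and Thor were not analysed here, so neither a fat body peptide nor the translational repressor that FOXO induces could be set beside the others. At both ages each of the 7 was brighter than the median probe set (4.90 on the log2 scale).

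Heads of Drosophila melanogaster came from aged flies of 25 days and young flies of 2 days, 3 arrays for each age. All flies had the background W* and carried P{GawB}elavC155, an enhancer trap at the neuronal gene elav that makes the yeast activator GAL4 in neurons, so the insertion is shared by both ages and has no control without it here. The sex of the flies is not stated, and nothing says that replicate arrays hold separately collected flies. The spread behind each p-value is that among these arrays and may be only technical. Expression is given as log2 RMA values, so that 1 unit of difference means a 2-fold change, and a gene is said to have passed where its limma p, adjusted over all probe sets, lay below 0.05.

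In flies, Ilp2, Ilp3 and Ilp5 are made by a small cluster of neurosecretory cells in the brain, which release them into the circulation, while Ilp6 comes mainly from the fat body. The peptides bind the receptor InR, which signals through the adaptor Chico, phosphatidylinositol 3-kinase and the kinase Akt. Akt holds the transcription factor FOXO out of the nucleus, and when the signal is low FOXO turns on a set of genes that includes InR itself. ImpL2 is a secreted protein that binds insulin-like peptides in the circulation and opposes their action.

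Of the 7 genes, foxo and InR rose in aged heads, Ilp5 fell, and Ilp2, ImpL2, Akt and chico did not pass (limma, adjusted over all probe sets). The 3 that passed make 42.9% of the 7, where 21.7% of all probe sets and 26.5% of all genes passed. Those shares include dim probe sets. With only the 9404 probe sets at or above the median level tested, 48.2% passed, and again 3 of the 7 genes, so the 7 did not exceed probe sets of like level. In aged heads 13.0% of all probe sets were higher and 8.7% lower, or 15.8% and 10.7% of genes. Without aged replicate 1, young replicate 1 or young replicate 3, foxo was the 1 gene of the 7 that rose. Arrays of the ages did not overlap for 4 of the 7 genes, against 40.8% of all probe sets. Ilp2 is among these 4 by a gap of only 0.0006 on the log2 scale. The median difference of the 7 was 0.27, and that of all genes was -0.0031.

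The arrays also differed by age in other ways. For control transcripts, the mean 3′ minus 5′ signal, a measure of labelling and RNA integrity, was 1.26 to 1.32 on aged arrays and 1.74 to 1.95 on young arrays for 3 fly messenger RNAs, and 1.22 to 1.37 on aged arrays against 1.49 to 1.82 on young arrays for 5 bacterial spike-ins (two-sided exact permutation test, p = 0.10 for each, the smallest that 3 arrays against 3 allow). Here labelling cannot be told apart from age, and its part in the differences below was not tested. Young replicate 2 stood 1 log2 unit or more above each of the other arrays at 155 probe sets, and aged replicate 3 did at 25. The trypsin gene betaTry read 8.12 on young replicate 2 and 3.41 to 3.91 on the other arrays. The summed level of the yolk protein genes Yp1 to Yp3, made by female fat body, was 8.97 to 9.25 on aged arrays and 8.39 to 11.26 on young arrays. Yp1 alone read 4.02, 7.76 and 10.17 on young arrays, and 5.87 to 6.47 on aged arrays.

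**Figure D1:**
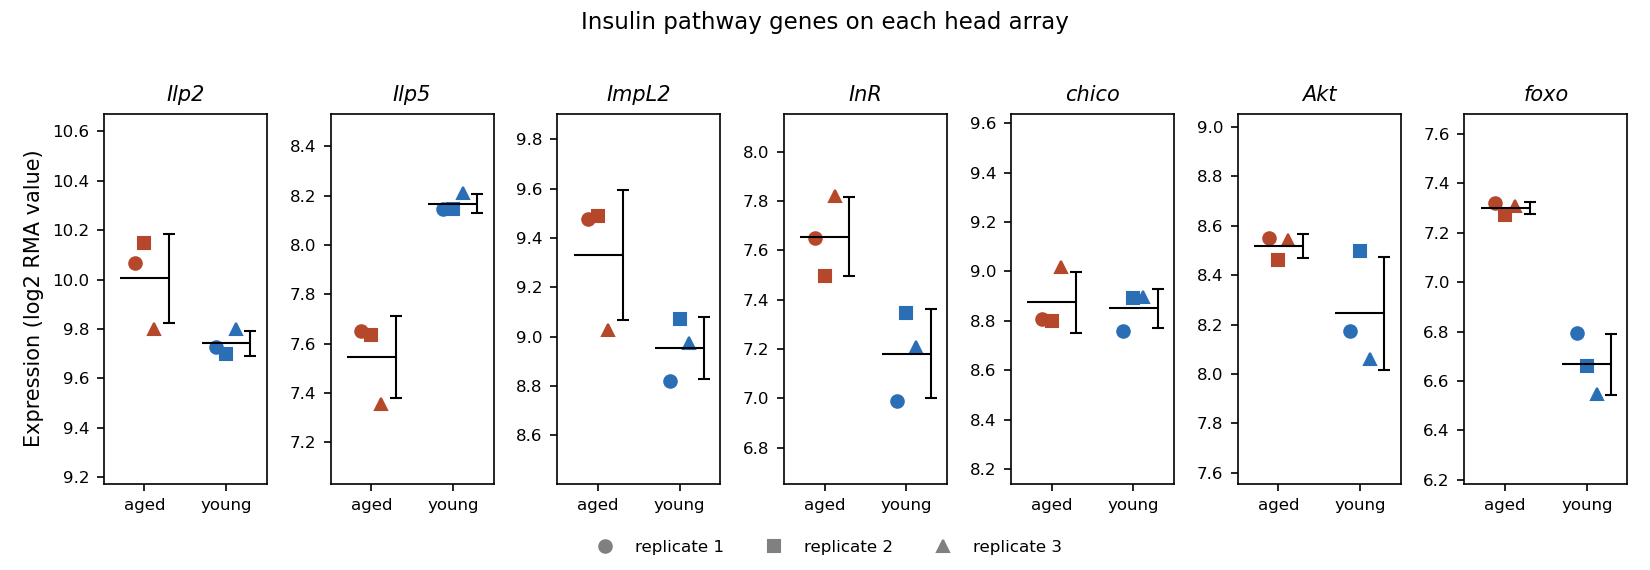
Expression of the 7 genes on each array (log2 RMA values, 3 aged arrays left and 3 young arrays right in each panel; symbols mark replicate numbers, horizontal lines are means and bars 1 SD). All panels span the same number of log2 units; the ages are apart for foxo, InR and Ilp5, touch at 9.80 for Ilp2 and overlap for ImpL2, Akt and chico.

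Ilp5 encodes an insulin-like peptide of the brain's insulin-producing cells. Its level was 7.65, 7.64 and 7.35 on aged arrays, and 8.15, 8.14 and 8.21 on young arrays. Every aged array lay below every young array, with aged replicate 3 the lowest. Ilp5 fell by 0.62 on the log2 scale (-0.62 ± 0.09, difference ± SE, 95% interval -0.84 to -0.40, limma adjusted p = 0.00435), a 1.54-fold lower level in aged heads. It passed with any single array left out, with differences of -0.67 to -0.52. In whole heads, fewer cells of a type and less RNA per cell cannot be told apart. The gene dimm, which encodes a transcription factor of peptidergic cells, could not serve as a guide to these cells, since it read 3.03 to 3.20 on aged arrays and 3.23 to 3.34 on young arrays, dimmer than the median probe set.

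Ilp2 encodes the other brain peptide measured. Its level was 10.07, 10.15 and 9.80 on aged arrays, and 9.73, 9.70 and 9.80 on young arrays. Aged replicates 1 and 2 were above all young arrays, while aged replicate 3 was level with young replicate 3. The difference of 0.26 ± 0.10 (95% interval 0.03 to 0.50, limma adjusted p = 0.104) did not pass, and its sign was opposite to that of Ilp5. Without aged replicate 3 it was 0.37 and passed (adjusted p = 0.0280).

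Among aged arrays both peptides were lowest on replicate 3, and among young arrays both were highest on replicate 3, so that the level of Ilp2 relative to Ilp5 varied less within an age than either gene alone. Aged replicate 3 was also the lowest aged array for ImpL2, and the highest for InR and chico. A low reading on that array was thus not particular to the peptides. Ilp2 minus Ilp5 was 2.42, 2.51 and 2.45 on aged arrays, and 1.58, 1.55 and 1.59 on young arrays. The SD of this difference was 0.05 among aged arrays and 0.02 among young arrays, where Ilp2 alone had SDs of 0.18 and 0.05 and Ilp5 alone 0.17 and 0.04 (n = 3 arrays each). The ages were apart by 0.88 on the log2 scale, a 1.84-fold shift of Ilp2 relative to Ilp5 in aged heads, and by 0.86 to 0.90 with any single array left out. The two-sided exact permutation test gave p = 0.10, the smallest that 3 arrays against 3 allow, so the design could not reach the threshold. This was the 1 pair of peptides that could be compared. The probe sets are scaled separately, so the value of 2.46 ± 0.05 in aged heads and 1.57 ± 0.02 in young heads does not say how many more Ilp2 than Ilp5 molecules there were, and only its change with age can be read.

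**Figure D2:**
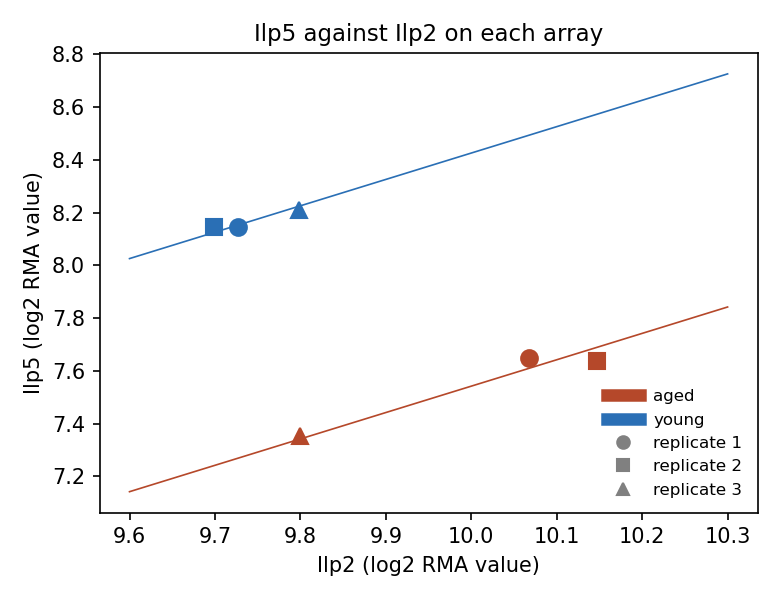
Ilp5 (vertical axis) against Ilp2 (horizontal axis) on each array, both as log2 RMA values, with aged arrays in red and young arrays in blue. Each line has a slope of 1 and marks the mean Ilp2 minus Ilp5 of its age, 2.46 for aged and 1.57 for young heads; the 3 arrays of an age lie along their line and the lines are 0.88 apart.

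The genes Ilp2 and Ilp5 are neighbours in the genome, with 3 other genes listed between them in the RefSeq annotation. The measured gene next to Ilp5 within this interval, CG43897, differed by -0.01 ± 0.18 between the ages (limma adjusted p = 0.974).

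Each peptide was also set against 7548 other genes at or above the median level, to see which had the most similar values over the 6 arrays. For Ilp5 the closest were apn (Pearson's r = 0.997), Ktl (0.997) and igl (0.996). Their own differences were -0.49 for apn, -0.58 for Ktl and -0.38 for igl, and all 3 passed. For Ilp2 they were Su(var)2-HP2 (Pearson's r = 0.991), B52 (0.988) and Culd (0.980), with differences of 0.32, 0.05 and 0.24, and none of these passed. The arrays share 2 ages and the same scaling, and r over 6 arrays picked from so many genes is a description of likeness with no test.

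ImpL2 encodes the secreted binding protein that antagonises insulin-like peptides, and its level was 9.48, 9.49 and 9.03 on aged arrays, and 8.82, 9.07 and 8.97 on young arrays. The ages overlapped through aged replicate 3 alone, which lay below young replicate 2. The difference of 0.38 ± 0.14 (95% interval 0.06 to 0.70, limma adjusted p = 0.0940) did not pass. Among single arrays left out, it passed only without aged replicate 3, at 0.53 (adjusted p = 0.0186, against 0.0808 to 0.256 otherwise). On the same array the larval serum protein gene Lsp2, a fat body marker, read 11.15, against 12.07 and 12.13 on the other aged arrays and 11.97 to 12.09 on young arrays; whether this bears on ImpL2 was not tested. The ImpL2 probe set has an ID ending in _s_at, a class that can be shared between genes, and so has that of Akt.

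Among other proteins that bind insulin-like peptides, Sdr, a secreted decoy of the receptor, differed by 0.03 ± 0.06 (limma adjusted p = 0.794). The gene conv, whose product is a counterpart of the acid-labile subunit of insulin-like growth factor complexes, fell by 0.56 (-0.56 ± 0.14, limma adjusted p = 0.0253). Its level was 4.54, 4.84 and 4.998 on aged arrays, and 5.27, 5.23 and 5.55 on young arrays. The aged mean of 4.79 is slightly dimmer than the median probe set (4.90), and the 95% interval of the difference ran from -0.87 to -0.24. It did not pass without aged replicate 1 (adjusted p = 0.0702), aged replicate 2 (0.0701) or young replicate 3 (0.0754).

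InR encodes the insulin receptor and is known as a FOXO target. Its level was 7.65, 7.50 and 7.82 on aged arrays, and 6.99, 7.35 and 7.21 on young arrays. All aged arrays lay above all young arrays, the nearest being aged replicate 2 and young replicate 2. InR rose by 0.47 ± 0.12 (95% interval 0.20 to 0.75, limma adjusted p = 0.0279), or 1.39-fold. The rise kept its direction with every single array left out, at 0.38 to 0.56. It did not pass without aged replicate 1 (adjusted p = 0.0844), aged replicate 3 (0.0880), young replicate 1 (0.0586) or young replicate 3 (0.0701).

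The adaptor gene chico gave 8.81, 8.80 and 9.02 on aged arrays, and 8.76, 8.89 and 8.90 on young arrays. The ages overlapped, and the difference was 0.02 ± 0.09 (95% interval -0.18 to 0.22, limma adjusted p = 0.872). Its sign turned with each array centred on its median (-0.02) and with quantile normalization (-0.0083).

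Akt encodes the kinase that relays the signal to FOXO, and its level was 8.55, 8.46 and 8.54 on aged arrays, and 8.17, 8.50 and 8.06 on young arrays. The aged arrays lay close together, and young replicate 2 stood among them. The difference of 0.27 ± 0.11 (95% interval 0.0042 to 0.54, limma adjusted p = 0.137) did not pass. Without young replicate 2 it was 0.40 and passed (adjusted p = 0.0154). With any other single array left out it was 0.18 to 0.30 and did not pass (adjusted p = 0.211 to 0.319).

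The gene foxo gave 7.32, 7.27 and 7.31 on aged arrays, and 6.79, 6.66 and 6.55 on young arrays. The aged arrays agreed within 0.05, and all of them lay above all young arrays. It rose by 0.63 ± 0.08 (95% interval 0.45 to 0.82, limma adjusted p = 0.00219), or 1.55-fold, and passed with any single array left out, at 0.57 to 0.70. Messenger RNA levels do not report the phosphorylation of Akt or the place of FOXO in the cell, through which the pathway acts.

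**Figure D3:**
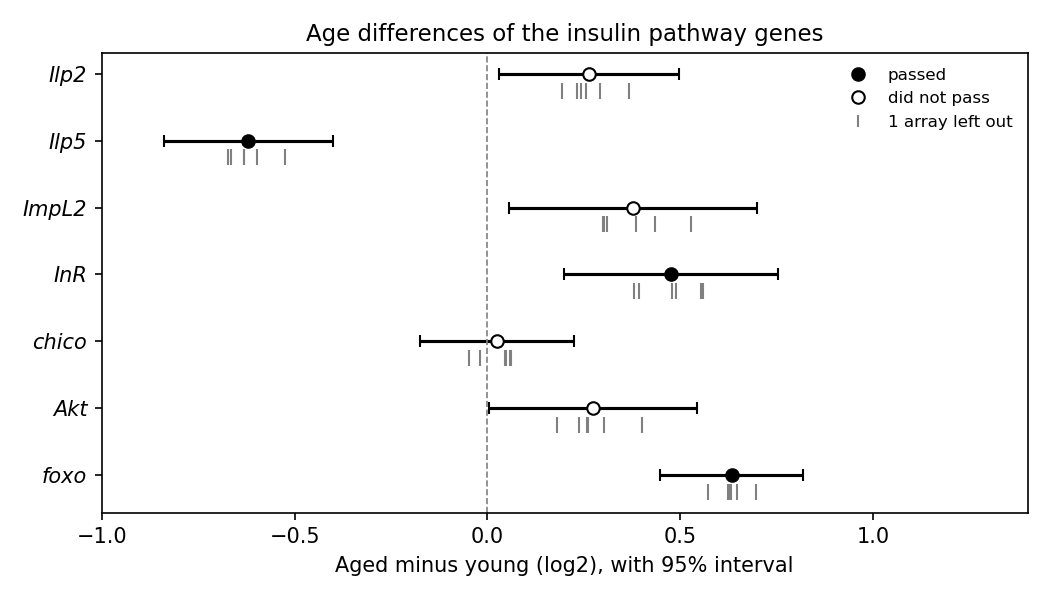
Aged minus young difference of each gene on the log2 scale (circles) with its 95% interval from limma (bars); filled circles passed and open circles did not, and grey ticks give the difference with each array left out in turn. Ilp5 at -0.62 is left of 0, foxo at 0.63 and InR at 0.47 are right of it, and the ticks of chico fall on both sides of 0.

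Of the FOXO targets among the 7, InR passed and ImpL2 did not. A further list held 7 genes described in flies as responsive to FOXO, all measured, of which 3 rose, 0 fell and 4 did not pass, with a median difference of 0.36 (15.8% of all genes rose and their median was -0.0031). That share includes dim genes, while none of these 7 was dimmer than the median probe set at either age. With only the probe sets at or above the median level tested, 30.3% of them rose. The list set no direction in which FOXO acts on each gene, and this may differ between them. Whether the counts and the median reflect FOXO activity was not tested. The triglyceride lipase gene bmm (brummer) read 10.22, 10.13 and 10.13 on aged arrays, and 9.34, 9.56 and 9.46 on young arrays. It rose by 0.71 ± 0.08 (limma adjusted p = 0.00141). The lipase gene Lip4 read 9.21, 9.29 and 9.02 on aged arrays, and 8.72, 8.38 and 8.46 on young arrays, a rise of 0.65 ± 0.11 (limma adjusted p = 0.00702). For both genes every aged array was above every young array. The gene daw, which encodes the activin-like ligand Dawdle, rose by 0.36 ± 0.07 (limma adjusted p = 0.0123), though not without aged replicate 1 (adjusted p = 0.0567). Pepck1, of gluconeogenesis, differed by 0.25 and Sesn, a sestrin that restrains TOR, by 0.17. The autophagy gene Atg8a differed by -0.05 and the glucosidase gene tobi by 0.50, with tobi at 9.41 on aged replicate 3 against 10.15 and 10.47 on the other aged arrays.

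Fat body, where several of these genes act, was followed by its own markers. Of 8 on the list, 7 were measured, and 2 rose, the lipid transfer genes Apoltp (0.70 ± 0.06) and Mtp (0.47 ± 0.07), while 0 fell (15.8% of all genes rose and 10.7% fell). The summed level of the 7 was 14.32 to 14.56 on aged arrays and 14.45 to 14.47 on young arrays, and Fbp1 was dimmer than the median probe set at both ages. Their part in the rise of bmm, Lip4 and daw was not tested.

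Signals and receptors known from the insulin-producing cells formed a further list. Of 15 genes on this list, 12 were measured, of which 1 rose, 3 fell and 8 did not pass (15.8% of all genes rose and 10.7% fell), with a median of -0.10. The serotonin receptor gene 5-HT1A read 8.25, 8.29 and 8.13 on aged arrays, and 8.61, 8.88 and 8.90 on young arrays. It fell by 0.57 (-0.57 ± 0.10, limma adjusted p = 0.00658). The tachykinin receptor gene TkR99D fell by 0.43 and CCHa2, a peptide that stimulates insulin-producing cells, by 0.39. The adiponectin receptor gene AdipoR rose by 0.33. CCHa2 did not pass without aged replicate 1 (adjusted p = 0.107), aged replicate 3 (0.0984), young replicate 2 (0.0655) or young replicate 3 (0.0905), and AdipoR without aged replicate 1 (0.0581) or aged replicate 2 (0.0589). The cytokine gene upd2 and the receptor gene CCHa2-R were dimmer than the median probe set at both ages. All these values are of whole heads and cannot be assigned to the insulin-producing cells.

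Genes that process, release or break down peptides were read as another list. Of 9, 8 were measured, of which 0 rose, 1 fell and 7 did not pass, with a median of -0.0087 (15.8% of all genes rose and 10.7% fell). Cadps, a factor in the release of dense-core vesicles, fell by 0.30 (-0.30 ± 0.07, limma adjusted p = 0.0195), while its other probe set stood at 0.45 and did not pass. Without aged replicate 1, 2 or 3 it did not pass (adjusted p = 0.0529, 0.0792 and 0.0556 in that order). The prohormone convertase gene amon differed by -0.04 and the insulin-degrading enzyme gene Ide by 0.0059.

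Of 16 further genes of the PI3K-Akt branch, 9 were measured, of which 1 rose, 1 fell and 7 did not pass, with a median of -0.05, near the shares of all genes that rose (15.8%) and fell (10.7%). The gene 14-3-3zeta, of a family that binds phosphorylated FOXO, read 11.44, 11.49 and 11.43 on aged arrays, and 11.87, 11.94 and 11.89 on young arrays. It fell by 0.45 (-0.45 ± 0.06, limma adjusted p = 0.00307), with no overlap between the ages, and passed with any single array left out. The gene trbl, a tribbles pseudokinase that restrains Akt in flies, rose by 0.25 ± 0.07 (limma adjusted p = 0.0493) and did not pass with any single array left out (adjusted p = 0.0654 to 0.141) or with the arrays centred (0.135). Pdk1, which phosphorylates Akt, differed by -0.07. For wdb and Sik3, which did not pass at their brighter probe sets (0.11 and -0.10), a dimmer probe set passed at 1.18 and 0.65.

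Of 25 genes of the TOR branch, which couples growth to nutrients, 19 were measured, of which 4 rose, 1 fell and 14 did not pass, with a median of 0.07, near the shares of all genes that rose (15.8%) and fell (10.7%). Iml1, a subunit of the GATOR1 complex that restrains TOR, read 9.40, 9.41 and 9.29 on aged arrays, and 8.84, 8.85 and 8.78 on young arrays. It rose by 0.54 ± 0.07 (limma adjusted p = 0.00207), whereas the other GATOR1 subunit genes Nprl2 and Nprl3 differed by 0.07 and 0.09 and did not pass. Lst8, a subunit of the TOR complexes, rose by 0.48 ± 0.09. REPTOR and REPTOR-BP, transcription factors that act when TOR is low, rose by 0.47 ± 0.08 and 0.34 ± 0.07. SNF4Agamma, the gamma subunit of the energy sensor AMPK, fell by 0.25 (limma adjusted p = 0.0495). REPTOR-BP did not pass without aged replicate 2 (adjusted p = 0.0597), aged replicate 3 (0.0601) or young replicate 3 (0.0523). SNF4Agamma passed without young replicate 1 but not without any of the other arrays (adjusted p = 0.101 to 0.157). S6k, the kinase that TOR activates, differed by 0.26 ± 0.08 and did not pass (limma adjusted p = 0.0560).

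Of 6 other insulin-like peptides and relaxin-type receptors, 4 were measured and none passed. Ilp7 read 3.31 to 3.48 on aged arrays and 3.19 to 3.81 on young arrays, and Ilp8 read 3.53 to 3.55 on aged arrays and 3.41 to 3.62 on young arrays, so both stayed near background. The receptor genes Lgr3 and Lgr4 differed by 0.03 and -0.13. Lgr4 was dimmer than the median probe set at both ages, and its other probe set stood at 0.24 and did not pass. Neither gene of the adipokinetic hormone axis, which mobilises energy stores against insulin, passed: Akh, near background, differed by -0.08 and its receptor gene AkhR by -0.04. The other probe set of AkhR stood at 0.12 and did not pass.

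**Figure D4:**
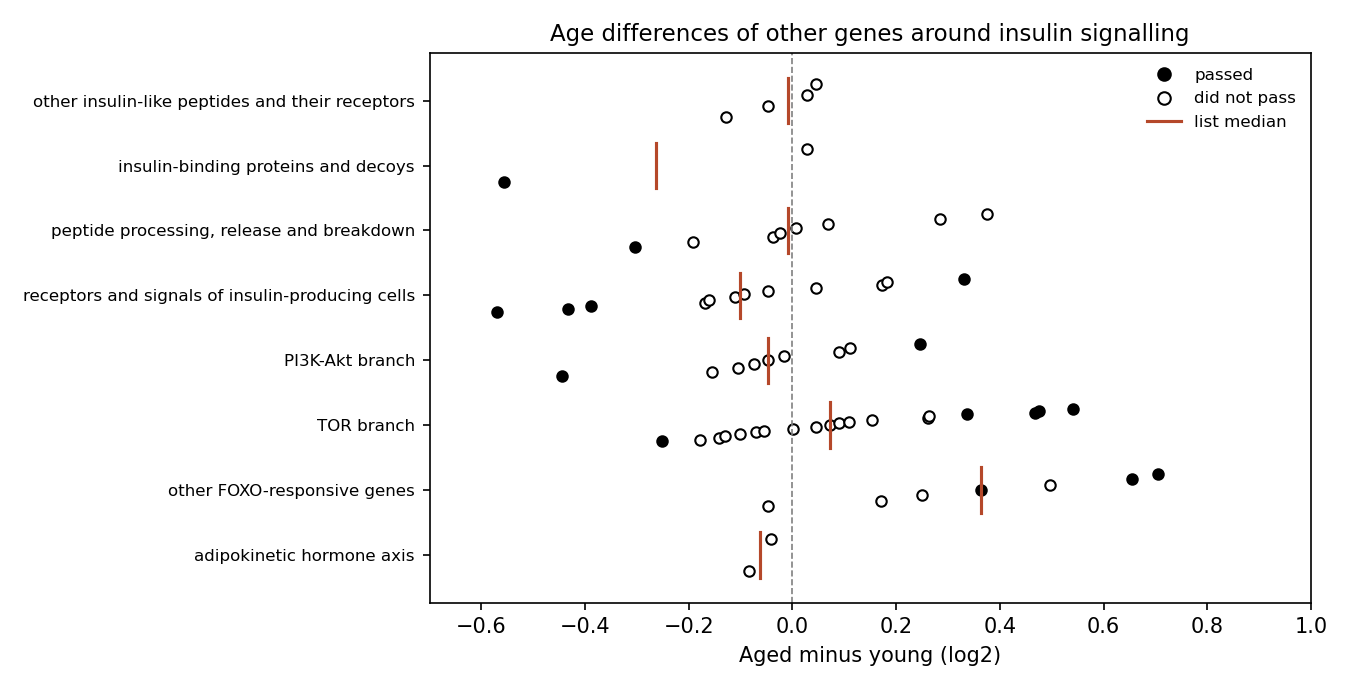
Aged minus young difference (log2) of each measured gene on the 8 lists of genes around the core pathway, 1 circle per gene, filled where it passed, with a vertical line at each list's median. The FOXO-responsive genes lie furthest right, with a median of 0.36 and 3 of 7 filled; the other medians run from -0.26 to 0.07.

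Over all 8 lists, 16 of 63 measured genes passed (25.4%), 9 higher and 7 lower, where 26.5% of all genes passed. With only probe sets at or above the median level tested, 20 of 53 list genes passed (37.7%), against 48.2% of all such probe sets. Without aged replicate 1, 9 of the 63 passed (6 higher and 3 lower), and without aged replicate 2, 10 passed (6 higher and 4 lower). Without aged replicate 3 or young replicate 3, 4 were lower. Markers of neurons and glia were read beside them, where 10.7% of all genes fell. Of 4 measured neuron markers 1 fell, brp (-0.44, with 0.05 to 0.46 at its other probe sets, none of which passed). The others, elav (-0.09), para (-0.33) and nSyb (0.30), did not pass. The summed level of the 4 was 11.21 to 11.39 on aged arrays and 11.22 to 11.40 on young arrays. Of 5 glia markers 2 fell, nrv2 (-0.83) and alrm (-0.48), while repo (-0.03), moody (-0.01) and wrapper (0.21) did not pass. The summed level of the 5 was 11.86 to 11.93 on aged arrays against 12.17 to 12.25 on young arrays. The part of these markers in the differences above was not tested.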

How the data were processed

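Total RNA of heads was extracted with Trizol and labelled with biotin, per the labels' protocols. The authors deposited RMA expression values on the log2 scale; the submitters' processing notes name RMA and limma, and which versions or options were used is not stated in the sources used here. RMA scales arrays to a common distribution, which sets aside any change in total messenger RNA, and compresses differences near background. The array medians lay between 4.85 and 4.93.

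After 183 controls were set aside, 18769 probe sets were tested; 13647 had 1 gene symbol in the platform's probe table, 402 several and 4720 none here. By gene identifier 13544 matched RefSeq, and 0 symbols changed. The probe set with the highest mean stood for a gene. The ages were compared over all 6 arrays by limma (version 3.58.1, R version 4.3.3; lmFit and eBayes without covariates) with Benjamini-Hochberg adjustment over all probe sets at 0.05, after a check on simulated data. The genes, lists and tests were chosen with earlier results of these data known. The text names the 7 genes; from each list, the 3 largest differences that passed, or all that passed in a direction where 5 or fewer did, or else the smallest p; and for Ilp2 and Ilp5 the 3 most similar genes. Other genes were added after their values were seen. Alternatives were a robust trended prior, a filter at the median level, median centring, quantile normalization, array weights and the replicate number as a block. Further alternatives left out arrays or, for the lists, probe sets with IDs ending in _s_at, _x_at or _a_at. The number of arrays limits the precision.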

Additional observations from a re-analysis of the deposited data

How the results depend on the processing

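Ilp5 and foxo passed, and InR kept its direction, under every alternative run, with -0.67 to -0.52 for Ilp5, 0.54 to 0.70 for foxo and 0.38 to 0.56 for InR. With single arrays left out, adjusted p was 0.00815 to 0.0204 for Ilp5, 0.0025 to 0.0145 for foxo and 0.0177 to 0.0880 for InR. Leaving out single arrays gave 0.19 to 0.37 for Ilp2, 0.30 to 0.53 for ImpL2, 0.18 to 0.40 for Akt and -0.047 to 0.062 for chico. Ilp2 passed with a robust trended prior (0.26, adjusted p = 0.0350; 0.0280 to 0.284 over its alternatives), and ImpL2 with array weights (0.42). With both young replicate 2 and aged replicate 3 left out, a choice made with the data in view, ImpL2 (0.59) and Akt (0.39) passed, so that 5 of the 7 genes passed, 4 higher; 2492 probe sets passed, 1462 higher and 1030 lower, and 3 list genes fell. The sign of chico turned with array weights (-0.025), centring (-0.019), quantile normalization (-0.0083) and without those 2 arrays (-0.026), and that of Akh without aged replicate 3 (-0.166 to 0.024 over single arrays left out). The cause was not tested. Of 18 genes named from the lists, 16 passed, and 7 of them (5-HT1A, 14-3-3zeta, Lst8, Iml1, REPTOR, Lip4 and bmm) passed under every other prior, filter, scaling, weighting, block and left-out array. Without probe sets with IDs ending in _s_at, _x_at or _a_at, 5-HT1A, 14-3-3zeta, Iml1 and REPTOR were not tested. Their IDs end in _s_at or, for Iml1, in _a_at.

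Over all probe sets 4071 passed, 2438 higher and 1633 lower, against 1859 higher and 1951 lower with arrays centred. With single arrays left out, 2302 (without aged replicate 1) to 4027 passed, with 2432 without aged replicate 2, 1377 to 2371 higher and 925 to 1659 lower; of the 7 genes 2 to 4 passed, 1 to 3 higher; and 9 to 18 list genes passed, 6 to 10 higher and 3 to 8 lower. Without probe sets with IDs of those endings, 7 of 40 list genes passed, 4 higher and 3 lower, fewer genes being tested. With the replicate number as a block, 3343 probe sets and the same number of the 7 genes (3) passed, and Cadps (adjusted p = 0.0569), trbl (0.0895) and SNF4Agamma (0.0745) did not. Deviations of same-numbered arrays correlated at 0.10, -0.02 and -0.06, and 2 of 6 arrays correlated best with their own number, so the numbers were not taken to pair the arrays. The number of arrays, and levels near background for Ilp7, Ilp8 and Akh, limit what can be seen.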
